A study of Mus musculus with 15 samples.

Results

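Genes of cholesterol efflux, of the liver X receptors (LXR) and of lipid droplets were examined in microglia sorted from mouse retinas. The group holds 10 genes, taken by symbol: the receptors Nr1h2 and Nr1h3, the transporters Abca1 and Abcg1, Mylip, Lpl, the ester-forming enzyme Soat1, the ester hydrolase Nceh1, and the droplet coat genes Plin2 and Plin3. All 10 were among the 35519 genes with a transcript in the deposited tables, and 9 of them were among the 6521 genes with enough reads to be tested. The retinas came from C57BL/6 mice aged 12 weeks and gave 15 bulk RNA libraries: 4 from Apoe-/- retinas injected with microbeads, 4 from Apoe-/- retinas given a sham injection, 3 from wildtype retinas injected with microbeads and 4 from wildtype retinas given a sham injection. Microbeads clog the drainage of the eye, and the raised pressure serves as a model of glaucoma. Apoe-/- mice lack apolipoprotein E, and the labels name no tissue or cell type to which the deletion is limited. Cells were sorted as CD11b+, Ly6c- and Fcrls+, 100 to 600 per retina, so a microglial cell without Fcrls on its surface is not in these libraries. Retinas are numbered within a group without a statement on how many mice gave them, so p-values measure only the spread between these samples, which may be technical.

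LXR are nuclear receptors that bind oxysterols and, with their partner RXR, switch on genes that export cholesterol. Abca1 and Abcg1 load that cholesterol onto lipoprotein particles, for which apolipoprotein E is a main acceptor in nervous tissue and is itself an LXR target. Microglia that have taken up membrane debris must either export the cholesterol or esterify it with the Soat1 enzyme and store it in lipid droplets, which the perilipins coat and from which the Nceh1 hydrolase can release it again.

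Of the 10 genes, 8 had an entry in the RefSeq table of promoters on GRCm38.p6, which spans 250 bases before to 50 bases after each annotated start. Abcg1 and Lpl were not matched. A search on both strands for the LXR element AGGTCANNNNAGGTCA, with at least 9 of its 12 fixed letters, found 1 member, Abca1. Its match starts 67 bases before the start and runs on the opposite strand; 21.9% of the 32851 promoters in the table hold a match at least as good. The motif AGGTCANAGGTCA, bound by RXR with peroxisome proliferator receptors and built from the same half-sites, matched in Plin2 with 10 of 12 letters at 225 bases before the start, against 3.86% of all promoters. A match of 9 letters lay in Plin3, against 24.6% of all promoters. CACGTG, an E-box that reads the same on both strands, lay in Abca1, Plin2 and Nceh1, 3 of the 8 members, against 7.15% of all promoters. The sterol response motif TCACNCCAC was in no promoter of the 8 members, against 1.24% of all promoters. The promoters of the 3 members with an E-box follow, each 5′ to 3′ on the gene's own strand, with the matched motifs in capitals. The matches do not overlap each other, and each is a description of these letters only.
Abca1, chr4:53159846-53160145, minus strand, the LXR element match and the E-box in capitals: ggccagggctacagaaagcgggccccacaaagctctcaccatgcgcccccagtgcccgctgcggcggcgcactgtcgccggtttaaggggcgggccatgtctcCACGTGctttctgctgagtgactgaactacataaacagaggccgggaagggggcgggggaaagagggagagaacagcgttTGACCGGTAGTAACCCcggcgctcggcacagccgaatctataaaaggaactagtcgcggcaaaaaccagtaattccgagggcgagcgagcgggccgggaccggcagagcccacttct
Plin2, chr4:86670010-86670309, minus strand, the receptor motif match and the E-box in capitals: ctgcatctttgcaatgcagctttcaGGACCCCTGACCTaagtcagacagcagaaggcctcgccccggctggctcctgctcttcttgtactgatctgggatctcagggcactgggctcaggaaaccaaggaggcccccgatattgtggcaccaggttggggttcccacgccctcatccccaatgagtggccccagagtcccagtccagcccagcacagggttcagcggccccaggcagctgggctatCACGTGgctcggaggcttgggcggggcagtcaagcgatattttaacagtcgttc
Nceh1, chr3:27182754-27183053, plus strand, the E-box in capitals: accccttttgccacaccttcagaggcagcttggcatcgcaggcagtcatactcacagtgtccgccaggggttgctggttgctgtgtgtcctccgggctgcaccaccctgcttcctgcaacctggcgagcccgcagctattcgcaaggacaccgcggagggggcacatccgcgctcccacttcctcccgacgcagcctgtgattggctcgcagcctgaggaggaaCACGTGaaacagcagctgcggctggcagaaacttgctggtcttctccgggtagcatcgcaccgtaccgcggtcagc

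Libraries held 458111 to 714670 reads assigned to genes, and levels in CPM below are reads scaled to a common size with TMM-scaled library sizes of 225227 to 1000258 reads. Apoe held 3 to 5 reads in Apoe-/- microbead libraries and 0 to 6 in Apoe-/- sham libraries, against 667 to 15125 in the wildtype libraries. All 10 defining microglial markers had reads in every group, with a summed level of 8560 to 13900 CPM in Apoe-/- microbead, 6800 to 13800 in Apoe-/- sham, 10200 to 13100 in wildtype microbead and 12100 to 13900 in wildtype sham libraries. Reads in 1497 receptor genes of smell and taste, which microglia are not known to express, gave the density per exonic kilobase of genes taken as silent. They took 0.835 to 2.14% of reads in Apoe-/- microbead, 0.965 to 2.44% in Apoe-/- sham, 0.668 to 1.3% in wildtype microbead and 0.861 to 1.73% in wildtype sham libraries. The 10 genes together held 95 to 686 reads per library, 3667 in all.

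In Apoe-/- retinas the 9 tested genes had a median log2 fold change of 0.15 between microbead and sham, against 0.01 over all genes tested. The sign of that median turned, to -0.10 with length offsets, -0.15 without Apoe-/- microbead library 2 and -0.02 without Apoe-/- microbead library 1 or Apoe-/- sham library 4. In wildtype retinas with microbeads, the transporters Abca1 and Abcg1, the ester-forming enzyme Soat1, the ester hydrolase Nceh1 and the droplet coat gene Plin2 averaged 1.72 to 3.12 times their level in wildtype sham retinas. The threshold was an adjusted p under 0.05 in edgeR's quasi-likelihood test with Benjamini-Hochberg adjustment over all genes tested. With microbeads in Apoe-/- retinas 0 of the 9 passed the threshold in edgeR, against 0.0% of all genes, and 0 of the 9 had an unadjusted p under 0.05, against 3.31% of all genes higher and 3.63% lower. In wildtype retinas 0 of the 9 passed it as well, against 13 of 6521 genes (0.199%). The smallest adjusted p among the 9 in wildtype in that edgeR test was 0.245, for Nceh1. DESeq2 also called 0 of the 9 in either genotype. At an unadjusted p under 0.05, edgeR had 5 of the 9 higher and 0 lower with microbeads, against 4.23% of all genes higher. The fold changes were positive for 7 of the 9, with a median log2 value of 0.78, against a median of -0.01 over all genes tested. In 2 of the 9, Nceh1 and Abcg1, every microbead library lay above every sham library, which held for 6.32% of all genes. In these bulk samples, fewer cells that express a gene and less of its RNA per cell cannot be told apart.

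**Figure D1:**
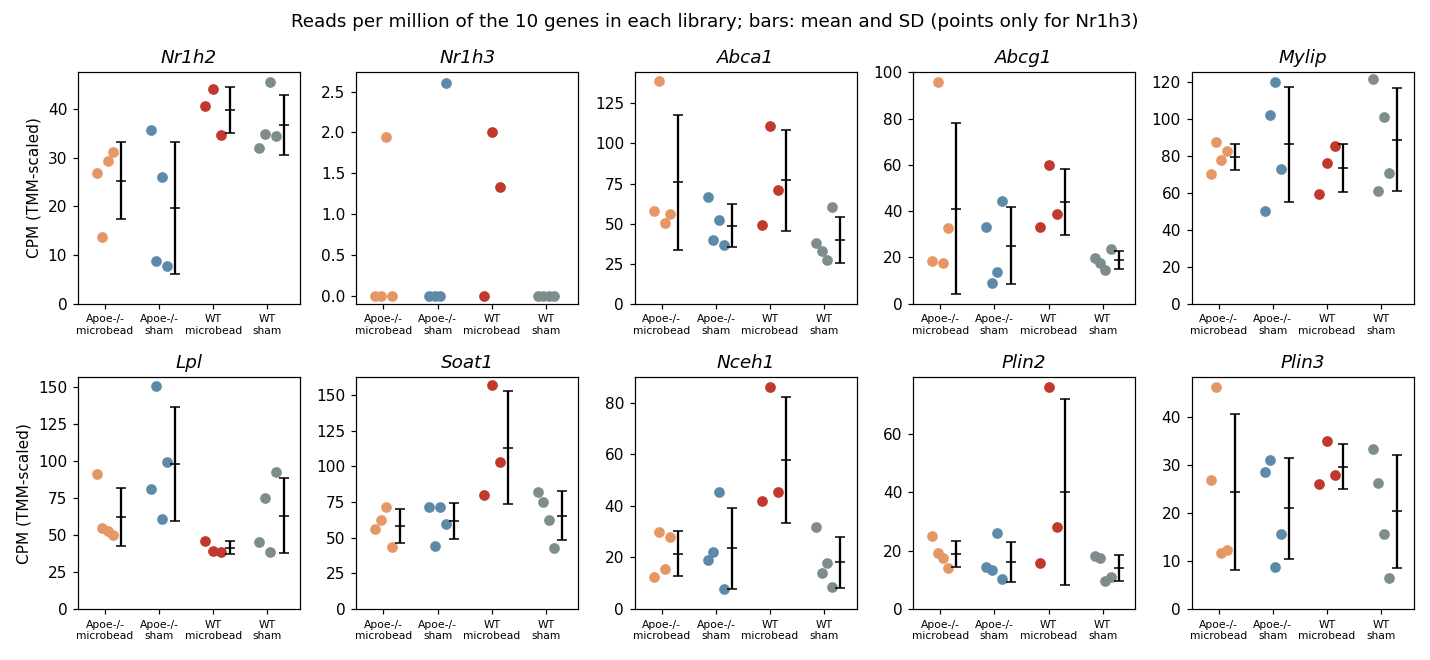
Level of each of the 10 genes in each library (vertical axis, TMM-scaled CPM, a separate scale per gene), 1 point per library in the 4 groups, with the mean and SD beside the points except for Nr1h3. For Nceh1 the wildtype microbead libraries, at 42.0 to 86.0 CPM, lie above the wildtype sham libraries, at 8.6 to 31.9 CPM, and wildtype microbead library 2 is the highest of its group for 8 of the 10 genes, all but Mylip and Lpl.

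Cholesterol esters are made by Soat1, sterol O-acyltransferase 1, and Soat1 held the second most reads of the group, 677 over the 15 libraries. The gene (ENSMUSG00000026600, chr1:156424525-156474331, minus strand, mm10) had 55.9, 62.8, 71.9 and 43.6 CPM in Apoe-/- microbead libraries, against 71.4, 44.4, 71.3 and 60.0 CPM in Apoe-/- sham libraries. These 8 libraries spanned a narrow range with the groups interleaved, and the log2 fold change was -0.11 (SE 0.29). Soat1 had 79.7, 157.0 and 103.0 CPM in wildtype microbead libraries, against 82.0, 75.1, 62.3 and 43.0 CPM in wildtype sham libraries. Library 1 of the microbead group lay just below the highest sham library, so the groups overlapped by that library alone. The log2 fold change was 0.78 (SE 0.29), with an adjusted p of 0.505 in edgeR's quasi-likelihood test with Benjamini-Hochberg adjustment. The difference between the genotypes' responses, Apoe-/- minus wildtype, was -0.89 on the log2 scale (SE 0.41, edgeR adjusted p = 1.0). Between genotypes after microbeads, all 4 Apoe-/- libraries lay below all 3 wildtype libraries, with a log2 fold change of -0.96 (SE 0.29, edgeR adjusted p = 0.482).

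Nceh1, neutral cholesterol ester hydrolase 1, frees cholesterol from stored ester in macrophages. The gene (ENSMUSG00000027698, chr3:27182965-27284608, plus strand, mm10) had 12.4, 30.0, 15.6 and 28.0 CPM in Apoe-/- microbead libraries, against 19.0, 22.2, 45.2 and 7.83 CPM in Apoe-/- sham libraries. The Apoe-/- groups overlapped widely, and sham library 3 was the highest of the 8, with a log2 fold change of -0.21 (SE 0.49) between the groups. Nceh1 had 42.0, 86.0 and 45.4 CPM in wildtype microbead libraries, against 31.9, 14.0, 18.0 and 8.6 CPM in wildtype sham libraries. All 3 microbead libraries were higher than all 4 sham libraries, by the largest fold of the 9 tested genes, 3.12. The log2 fold change was 1.64 (SE 0.45, edgeR adjusted p = 0.245). The difference between responses was -1.85 (SE 0.67, 95% interval -3.25 to -0.44, edgeR adjusted p = 1.0). After microbeads all 4 Apoe-/- libraries were below all 3 wildtype libraries, with a log2 fold change of -1.44 (SE 0.46, edgeR adjusted p = 0.518). Without TMM scaling or without the filter on low counts, Nceh1 passed the threshold in wildtype retinas, with adjusted p-values of 0.0461 and 0.0165 in edgeR.

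Within a library, the ratio of Soat1 to Nceh1 reads compares ester formation with ester hydrolysis transcripts and does not depend on the scaling between libraries. Its log2 value, with 1 read added to each gene, was 0.61 to 2.08 in Apoe-/- microbead libraries and 0.64 to 2.58 in Apoe-/- sham libraries, and these ranges overlapped. It was 0.86 to 1.16 in wildtype microbead libraries and 1.32 to 2.29 in wildtype sham libraries, and these did not. The share of all gene pairs that lie apart in this way was not computed. This ratio rests on the same Nceh1 reads as the fold change above, 4 to 21 per wildtype sham library. The ratios of Abca1 to Abcg1 and of Nr1h2 to Nr1h3 overlapped between microbead and sham libraries in both genotypes.

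Plin2, adipophilin, coats lipid droplets in most cells that form them and is the usual marker of droplet-laden phagocytes. The gene (ENSMUSG00000028494, chr4:86648386-86670060, minus strand, mm10) had 24.9, 19.1, 17.5 and 14.0 CPM in Apoe-/- microbead libraries, against 14.3, 13.3, 26.1 and 10.4 CPM in Apoe-/- sham libraries. The highest of these 8 was a sham library, and the log2 fold change was 0.15 (SE 0.50). Plin2 had 15.9, 76.0 and 28.0 CPM in wildtype microbead libraries, against 18.2, 17.5, 9.59 and 10.8 CPM in wildtype sham libraries. Library 2 of the microbead group was far above the rest, with 76 of the 108 reads of its group, and library 1 lay within the sham range. The log2 fold change was 1.53 (SE 0.46, edgeR adjusted p = 0.329). Without wildtype microbead library 2 it was 0.65, with an edgeR p of 0.18. The difference between responses was -1.38 (SE 0.68, 95% interval -2.81 to 0.05, edgeR adjusted p = 1.0), and -0.49 without wildtype microbead library 2. After microbeads Apoe-/- and wildtype libraries overlapped, with a log2 fold change of -1.12 (SE 0.46, edgeR adjusted p = 0.626), which was -0.24 without that library.

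Plin3 (ENSMUSG00000024197, chr17:56277476-56292873, minus strand, mm10) encodes a perilipin that moves from the cytosol to nascent droplets. In Apoe-/- libraries its level was 24.4 ± 16.3 CPM with microbeads and 21.0 ± 10.6 CPM with sham (SD, n = 4 each). It was 29.7 ± 4.69 CPM (SD, n = 3) in wildtype microbead and 20.4 ± 11.8 CPM (SD, n = 4) in wildtype sham libraries. Both pairs of groups overlapped, and the log2 fold changes were 0.23 (SE 0.53) in Apoe-/- and 0.52 (SE 0.49) in wildtype retinas. The ratio of Plin2 to Plin3 reads overlapped between microbead and sham libraries in both genotypes.

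Abca1 moves cholesterol and phospholipid to lipid-poor apolipoproteins. The gene (ENSMUSG00000015243, chr4:53030787-53159895, minus strand, mm10) had 58.0, 139.0, 50.5 and 56.0 CPM in Apoe-/- microbead libraries, against 66.6, 40.0, 52.2 and 36.5 CPM in Apoe-/- sham libraries. Microbead library 2 stood far above the other Apoe-/- libraries, which overlapped, and the log2 fold change was 0.59 (SE 0.37), or 0.14 without that library. Abca1 had 49.2, 111.0 and 70.7 CPM in wildtype microbead libraries, against 38.0, 33.2, 27.6 and 60.2 CPM in wildtype sham libraries. Sham library 4 lay above microbead library 1, and otherwise the groups were apart. The log2 fold change was 0.99 (SE 0.38, edgeR adjusted p = 0.517). The difference between responses was -0.40 (SE 0.53), with a 95% interval of -1.51 to 0.71.

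Abcg1 exports cholesterol to particles that already carry lipid. The gene (ENSMUSG00000024030, chr17:31057675-31117988, plus strand, mm10) had 18.6, 95.6, 17.5 and 32.7 CPM in Apoe-/- microbead libraries, against 33.3, 8.88, 13.9 and 44.4 CPM in Apoe-/- sham libraries. Library 2 of the Apoe-/- microbead group was again the highest and the other 7 libraries overlapped. The log2 fold change was 0.61 (SE 0.51), and -0.14 without that library. Abcg1 had 33.3, 60.0 and 38.7 CPM in wildtype microbead libraries, against 19.7, 17.5, 14.4 and 23.7 CPM in wildtype sham libraries. Every microbead library was above every sham library, with a log2 fold change of 1.25 (SE 0.51, edgeR adjusted p = 0.541). The difference between responses was -0.64 (SE 0.73), with a 95% interval of -2.16 to 0.88.

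**Figure D2:**
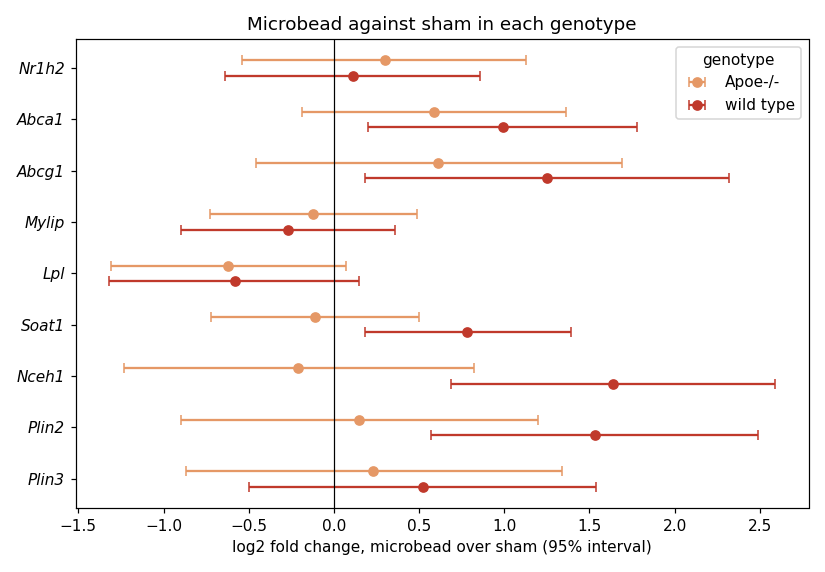
Log2 fold change of microbead over sham (horizontal axis) for the 9 tested genes in Apoe-/- and in wildtype retinas, as points with 95% intervals from the edgeR fit. Every interval in Apoe-/- retinas includes 0, and intervals lie above 0 for Soat1, Nceh1, Plin2, Abca1 and Abcg1 in wildtype.

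Wildtype microbead library 2 was the highest wildtype library for these 5 genes. It also had the smallest share of reads in silent receptor genes, 0.668%, and the highest Apoe level, 15100 CPM, and the part of either in the result was not tested. Without this library the log2 fold changes in wildtype retinas were 1.22 for Nceh1, 0.95 for Abcg1, 0.65 for Plin2, 0.62 for Abca1 and 0.46 for Soat1. All 5 were still positive, and only Nceh1 kept an unadjusted p under 0.05 in edgeR, at 0.0264.

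The LXR genes themselves were unequal in level. Nr1h2, which encodes LXR-beta, had a mean of 4.42 ± 1.87 TPM in Apoe-/- microbead, 6.14 ± 7.51 TPM in Apoe-/- sham (SD, n = 4 each), 14.7 ± 1.58 TPM (SD, n = 3) in wildtype microbead and 9.79 ± 3.24 TPM (SD, n = 4) in wildtype sham libraries. TPM is scaled for transcript length and allows levels of different genes to be compared within a library. Nr1h3, which encodes LXR-alpha, held 5 reads in all 15 libraries: 1 in the Apoe-/- microbead group, 1 in Apoe-/- sham, 3 in wildtype microbead and 0 in wildtype sham. The 0 reads over the 4 wildtype sham libraries allow a level of up to 1.21 CPM, taking 3 reads over the group as the limit, against a mean of 36.7 CPM for Nr1h2 in the same libraries. This limit covers counting error only. In every group the mean TPM of Nr1h3 was the lowest of the 10.

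Nr1h2 (ENSMUSG00000060601, chr7:44549616-44553951, minus strand, mm10) had 26.9, 13.7, 29.2 and 31.1 CPM in Apoe-/- microbead libraries, against 35.7, 8.88, 26.1 and 7.83 CPM in Apoe-/- sham libraries. Sham libraries 2 and 4 were the lowest of all 15, at 2 and 3 reads. These libraries also had the highest shares of reads in silent receptor genes of all 15, 2.44 and 2.35%. The part of that background in the Nr1h2 values was not tested. Nr1h2 had 40.6, 44.0 and 34.7 CPM in wildtype microbead libraries, against 31.9, 34.9, 45.6 and 34.4 CPM in wildtype sham libraries. The groups interleaved, with a log2 fold change of 0.11 (SE 0.36) and a 95% interval of -0.64 to 0.86. Between genotypes, Apoe-/- sham over wildtype sham had a log2 fold change of -0.81 (SE 0.38, edgeR adjusted p = 0.573). After microbeads all 4 Apoe-/- libraries lay below all 3 wildtype libraries, with a log2 fold change of -0.62 (SE 0.38, edgeR adjusted p = 0.75). Nr1h2 has a pseudogene, Nr1h2-ps, to which 1 read was assigned in all. An exon of Nr1h3 (ENSMUSG00000002108, chr2:91184061-91202834, minus strand) overlaps one of Gm13783 on the same strand, so its few reads are uncertain.

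Mylip, also called Idol, is an LXR target whose ubiquitin ligase marks certain membrane proteins for breakdown. The gene (ENSMUSG00000038175, chr13:45389742-45412022, plus strand, mm10) held the most reads of the group, 713. Apoe-/- libraries averaged 79.5 ± 7.22 CPM with microbeads and 86.3 ± 31.0 CPM with sham (SD, n = 4 each). Mylip averaged 73.6 ± 13.2 CPM (SD, n = 3) in wildtype microbead and 88.6 ± 27.6 CPM (SD, n = 4) in wildtype sham libraries. The groups overlapped in every comparison. The log2 fold changes were -0.12 (SE 0.29, 95% interval -0.73 to 0.49) in Apoe-/- and -0.27 (SE 0.30, 95% interval -0.90 to 0.36) in wildtype retinas, so neither interval reached 1.0 in size, and the sign in both genotypes turned positive without TMM scaling and on the log2 TPM scale.

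Lpl, lipoprotein lipase, releases fatty acids from circulating lipoproteins and belongs to genes that microglia express in disease states. The gene (ENSMUSG00000015568, chr8:68880491-68907448, plus strand, mm10) held 44, 20, 27 and 32 reads in Apoe-/- microbead libraries and 34, 34, 35 and 38 in Apoe-/- sham libraries. It held 32, 39 and 29 reads in wildtype microbead libraries and 30, 43, 32 and 43 in wildtype sham libraries. Reads as counted thus ran from 20 to 44, with the groups overlapping, over libraries whose TMM-scaled sizes ran from 225227 to 1000258. The log2 fold changes were -0.62 (SE 0.33, edgeR adjusted p = 0.711) with microbeads in Apoe-/-, -0.58 (SE 0.35) with microbeads in wildtype and 0.62 (SE 0.33, edgeR adjusted p = 0.606) for Apoe-/- against wildtype in sham retinas. The wildtype value turned positive on the log2 TPM scale.

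Most Lpl reads did not belong to its coding transcript. Of 512 reads, 343 were assigned to Lpl-202, a transcript annotated as a retained intron, and 128 to the coding transcript Lpl-201. The extra sequence of Lpl-202 lies at chr8:68887604-68889681 (mm10), within the intron after exon 2 of the 10 exons of Lpl-201. Lpl-202 had 142.0 reads per kilobase, 7.0 times the density of the silent genes, and Lpl-201 had 31.2 reads per kilobase, 1.54 times that density. Reads outside coding transcripts made up 70.3% of Lpl reads in Apoe-/- microbead, 84.4% in Apoe-/- sham, 77.7% in wildtype microbead and 67.9% in wildtype sham libraries. The coding transcript held 6.95, 6.95, 2.88 and 19.7 estimated reads in Apoe-/- microbead libraries and 0.0, 4.52, 10.1 and 7.37 in Apoe-/- sham libraries. It held 7.49, 14.8 and 0.0 in wildtype microbead libraries and 4.97, 23.7, 9.3 and 9.71 in wildtype sham libraries. All groups overlapped, so a gene-level value for Lpl in these libraries is mainly a value for the retained-intron transcript.

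**Figure D3:**
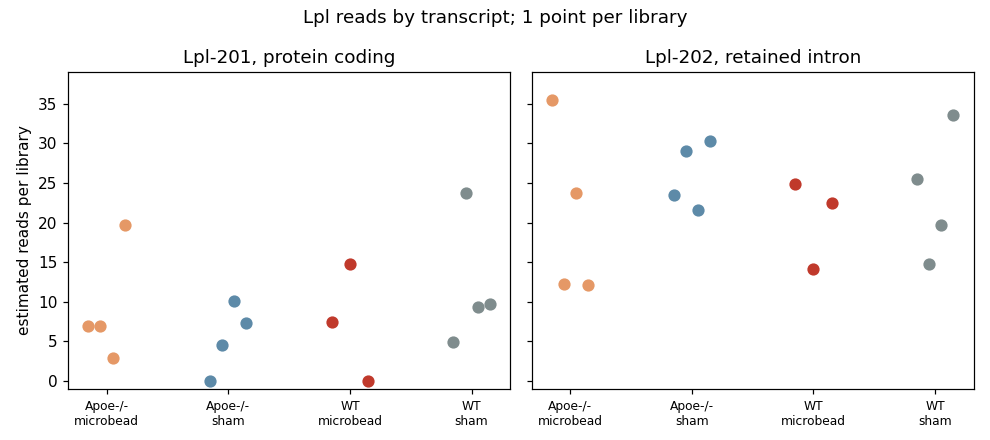
Estimated reads per library (vertical axis) assigned to the coding transcript Lpl-201 (left) and to the retained-intron transcript Lpl-202 (right), 1 point per library in the 4 groups. Lpl-201 spans 0.0 to 23.7 reads and Lpl-202 spans 12.1 to 35.5 reads, with the groups overlapping in both.

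For the other members, reads fell mostly on coding transcripts. Reads outside them made up 14.7 to 19.8% for Plin2 and 16.3 to 37.4% for Nr1h2 across the groups, and 0.0% in every group for Mylip and Plin3. For Soat1 the share was 5.15% in Apoe-/- microbead, 14.9% in Apoe-/- sham, 1.79% in wildtype microbead and 2.88% in wildtype sham libraries.

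How far each gene stood above the density of silent genes differed by gene and group. Mylip alone was over 3 times that density in all 15 libraries, at 9.71 times in Apoe-/- microbead, 6.7 in Apoe-/- sham, 17.7 in wildtype microbead and 13.1 in wildtype sham libraries, summed per group. Nceh1 was at 1.62 times in Apoe-/- microbead, 1.23 in Apoe-/- sham, 8.96 in wildtype microbead and 1.67 in wildtype sham libraries. Plin2 was at 2.08, 1.22, 9.71 and 1.82 times in the groups in that order. Abca1 was at 2.69, 1.2, 6.03 and 1.68 times, and Abcg1 at 2.0, 0.863, 4.85 and 1.15 times. Summed per group, these 4 genes were thus within 3 times the background outside the wildtype microbead group. Single libraries differed. Abca1, Abcg1 and Plin2 were each over 3 times in 4 of the 15 libraries and Nceh1 in 5, more than the 3 wildtype microbead libraries. The part of that background in the levels of these genes was not tested. Soat1, at 2.32, 1.63, 9.32 and 3.15 times, was above 3 times in both wildtype groups.

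**Figure D4:**
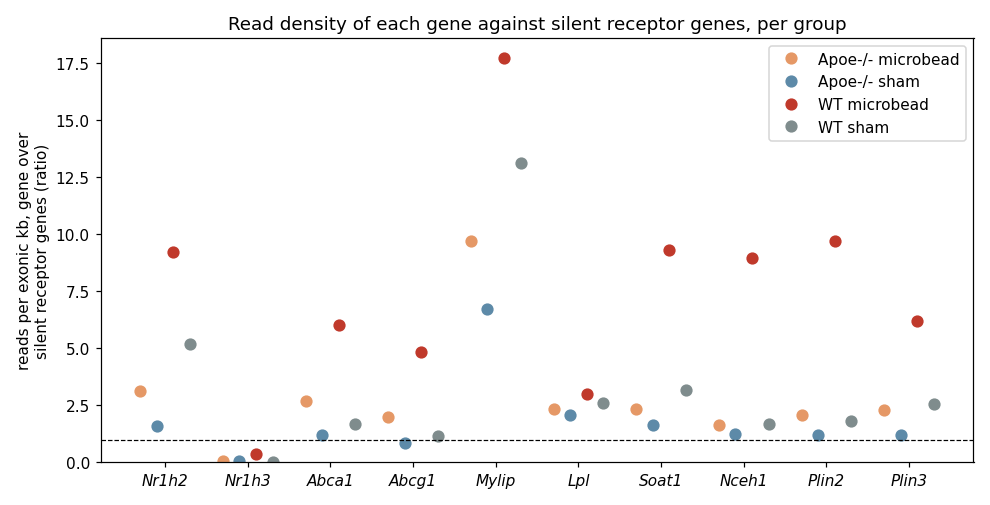
Reads per exonic kilobase of each gene divided by reads per exonic kilobase of 1497 silent receptor genes (vertical axis, summed over the libraries of a group), 1 point per group; the dashed line marks a ratio of 1. Mylip is the highest in every group and Nr1h3 lies below the line in every group, while Abca1, Abcg1, Nceh1 and Plin2 reach 4.85 to 9.71 in wildtype microbead libraries and 2.69 or less in the other groups.

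By mean TPM, the order in wildtype microbead libraries was Soat1 (21.5 ± 13.5, SD, n = 3), Plin2 (14.8 ± 11.5), Nr1h2 (14.7 ± 1.58), Mylip (13.1 ± 3.56), Nceh1 (11.1 ± 4.94), Lpl (8.16 ± 1.01), Abcg1 (4.69 ± 1.73), Plin3 (3.86 ± 1.2) and Abca1 (3.77 ± 1.96). Neighbours in this order overlapped between libraries, except that every Lpl value lay above every Abcg1 value. In wildtype sham libraries the order began with Nr1h2 (9.79 ± 3.24, SD, n = 4), Mylip (9.03 ± 4.07) and Lpl (6.83 ± 1.18), followed by Soat1 at 6.5 ± 3.09. It ended, above Nr1h3, with Abcg1 (1.13 ± 0.198) and Abca1 (1.05 ± 0.182), and all neighbours above Nr1h3 overlapped. Abca1 held 515 reads over 10363 exonic bases, so its place by TPM was lower than its place by reads.

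Between genotypes after microbeads, the median log2 fold change of Apoe-/- over wildtype over the 9 tested genes was -0.36, against 0.01 over all genes, and 0 of the 9 passed the threshold in edgeR, against 0.046% of all genes. Unadjusted p-values under 0.05 were found for 3 of the 9, Soat1, Nceh1 and Plin2, all lower in Apoe-/- and against 2.94% of all genes. The Apoe-/- libraries lay wholly below the wildtype libraries for 3 genes, Soat1, Nceh1 and Nr1h2, against 3.7% of all genes, and wholly above for Lpl, against 3.14%. The Lpl value depended on the scaling, at 0.58 on the log2 scale with TMM, -0.02 without it and -0.39 and -0.45 on log2 TPM with pseudocounts of 1 and 0.1. In TPM the Lpl groups overlapped, at 3.88 to 10.3 in Apoe-/- microbead and 7.08 to 9.07 in wildtype microbead libraries. In sham retinas 0 of the 9 passed the threshold in edgeR, against 0.0153% of all genes, and Nr1h2 alone had an unadjusted p under 0.05, in the direction that 2.99% of all genes took. For the difference between the responses, 0 of the 9 and 0.0% of all genes passed, and Soat1 and Nceh1 had unadjusted p-values under 0.05, against 1.46% of all genes in that direction. DESeq2 called 0 of the 9 in the sham comparison and in the difference between the responses. After microbeads it gave no adjusted p for any of the 9, so a count called there has no value. The wildtype microbead libraries enter 3 of the 5 comparisons, so these results share samples. The letter in the names of the deposited tables differs between the genotypes without a stated meaning, and it cannot be told apart from genotype.

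Levels of pairs of members across the 15 libraries were compared as a description, since the libraries share conditions and depth. Pearson's r of log2 CPM had a median of 0.29 over the 36 pairs of tested members. It was highest for Plin2 and Soat1, 0.79, and 0.73 after group means were removed. Abca1 and Abcg1 had an r of 0.76, and 0.66 without group means, while Plin2 and Nceh1 had 0.74, and 0.55. The r of Lpl was negative with every other tested member. It was -0.66 with Nr1h2, -0.63 with Nceh1, -0.62 with Soat1 and -0.4 to -0.1 with the rest. Without group means it was -0.44, -0.6 and -0.51 with Nr1h2, Nceh1 and Soat1, and -0.41 to 0.11 with the rest. As given above, Lpl reads varied less between libraries than the TMM-scaled library sizes did. The part of that scaling in these r values was not tested.

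**Figure D5:**
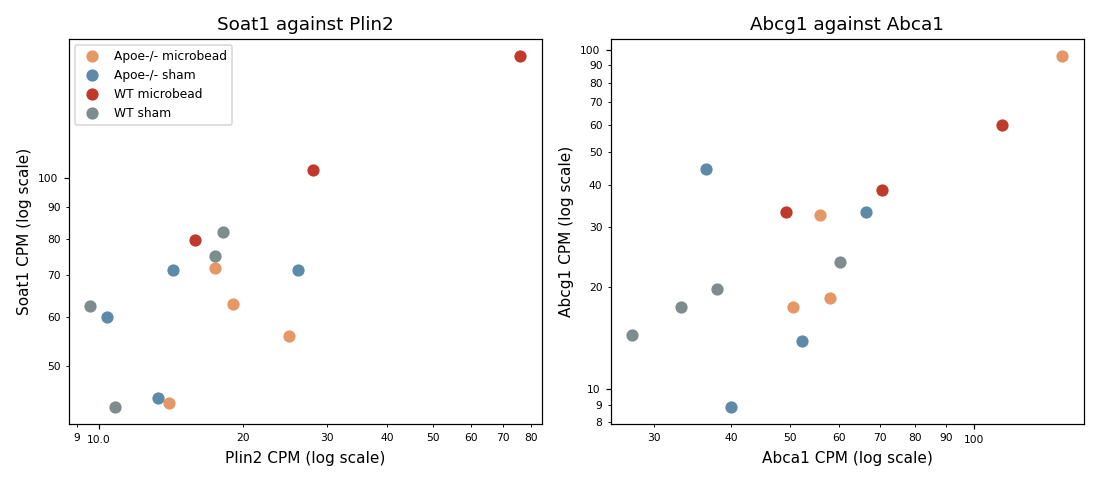
Soat1 against Plin2 (left) and Abcg1 against Abca1 (right), in TMM-scaled CPM on log axes, 1 point per library coloured by group. Wildtype microbead library 2 is at the top right of the left panel, at 76.0 CPM of Plin2 and 157.0 CPM of Soat1, and Apoe-/- microbead library 2 is at the top right of the right panel, at 139.0 CPM of Abca1 and 95.6 CPM of Abcg1.

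Among all tested genes, those most like Nceh1 over the 15 libraries were Atp6v1a (r = 0.881) and Atp6v0c (0.823), both subunits of the proton pump that acidifies lysosomes, then Gna13 (0.819), Ftl1 (0.815), the ferritin light chain, and Nucb1 (0.81). Those most like Plin2 were Plek (0.887), Lilr4b (0.812), Pgam1 (0.805), a glycolytic enzyme, Soat1 (0.79) and Sqstm1 (0.765), the autophagy receptor p62. For Soat1 they were Dusp3 (0.796), Plin2 (0.79), P2rx4 (0.787), a purine receptor, Cd84 (0.78) and Eif3f (0.779). These are the 5 largest of 6521 values for each gene.

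In the wider pathway, 2 genes passed the threshold in wildtype retinas, Apoe and Fabp5. Of 14 other LXR targets, 6 were tested, and these include Apoe, the deleted gene. In Apoe-/- retinas the median log2 fold change of the 6, Apoe included, was 0.24. There 0 of the 6 passed in edgeR, with 0 at an unadjusted p under 0.05, Arl4c at -0.18 (SE 0.38) and Srebf1 at 0.44 (SE 0.55). The Apoe value there, 0.45 (SE 0.69), rests on 14 reads over the microbead and 8 over the sham libraries. In wildtype retinas 1 of the 6 rose: Apoe, at 10200 ± 4750 CPM (SD, n = 3) with microbeads and 1460 ± 49.0 CPM (SD, n = 4) with sham, a log2 fold change of 2.80 (SE 0.41, edgeR adjusted p = 0.0045). Arl4c, a small GTPase gene induced by LXR, had a log2 fold change of 0.96 (SE 0.37, edgeR adjusted p = 0.525) in wildtype, and Srebf1, the regulator of fatty acid synthesis, 0.83 (SE 0.53). Without wildtype microbead library 2 the Apoe value was 2.40 with an edgeR adjusted p of 0.0526, and without wildtype sham library 1 it was 2.82 with an edgeR adjusted p of 0.0519. The median of the 6 in wildtype, Apoe included, was 0.48, against -0.01 over all genes.

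Of 12 LXR partners and cofactors, 11 were tested and 0 passed in any comparison in edgeR, with 0 at an unadjusted p under 0.05. Rxra, the RXR partner of LXR, had a log2 fold change with microbeads of -0.60 (SE 0.64) in Apoe-/- and 1.11 (SE 0.61) in wildtype retinas. The corepressor gene Ncor1 was at -0.30 (SE 0.28) in wildtype and its partner Tbl1xr1 at -0.39 (SE 0.35). The list's median in wildtype was -0.04.

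Of 29 genes of droplet formation, coat and lipolysis beside the members, 12 were tested and 0 passed in edgeR in any comparison. Lipa, the lysosomal acid lipase that splits cholesterol esters taken up by the cell, had an unadjusted p under 0.05 in edgeR in wildtype, as did none of the other 11 tested. Over all genes, 4.23% were higher at that limit. In Apoe-/- retinas Lipa was at 51.8 ± 20.2 CPM with microbeads and 61.2 ± 6.94 CPM with sham (SD, n = 4 each). In wildtype retinas it averaged 98.5 ± 47.4 CPM (SD, n = 3) with microbeads and 59.0 ± 14.5 CPM (SD, n = 4) with sham, a log2 fold change of 0.75 (SE 0.33, edgeR adjusted p = 0.584), and the difference between responses was -0.99 (SE 0.47, edgeR adjusted p = 1.0). Pnpla2, the first lipase of triglyceride breakdown, was at 0.51 (SE 0.42) and Ldah, a droplet-associated hydrolase gene, at -0.62 (SE 0.44) in wildtype. The list's median was -0.22 in Apoe-/- and 0.06 in wildtype retinas.

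Of 16 genes that act with lipoprotein lipase or in fatty acid uptake, 5 were tested and Fabp5, a fatty acid carrier, rose in wildtype retinas. In Apoe-/- retinas Fabp5 held 16 reads in the 4 microbead libraries and 0 in the 4 sham libraries. The log2 fold change there was 5.31 (SE 1.51), with an unadjusted p of 0.00273 and an adjusted p of 0.70 in edgeR. In wildtype retinas it averaged 49.0 ± 33.0 CPM (SD, n = 3) with microbeads and 2.2 ± 1.58 CPM (SD, n = 4) with sham, a log2 fold change of 4.28 (SE 0.71, edgeR adjusted p = 0.0136). That adjusted p in edgeR was 0.494 without wildtype microbead library 2, 0.0516 to 0.0735 without any 1 of the 4 wildtype sham libraries and 0.0661 with the replicate block. For Fabp5 the difference between responses, Apoe-/- minus wildtype, was 1.02 (SE 1.10). After microbeads, Apoe-/- over wildtype was -2.52 (SE 0.63, edgeR adjusted p = 0.322). With microbeads in Apoe-/- retinas Lmf2, which aids the folding of lipases, had an unadjusted p of 0.0146 in edgeR, and Sel1l, which aids Lpl export, 0.0211; both were named after their values were seen.

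Of 8 Mylip substrates and partners, 4 were tested and 0 passed in edgeR. Of 23 further sterol transport genes, 12 were tested and 0 passed in edgeR. Npc2, which carries cholesterol out of lysosomes, was at 0.74 (SE 0.29, edgeR adjusted p = 0.531) and Tspo, a mitochondrial outer membrane protein, at 0.85 (SE 0.37, edgeR adjusted p = 0.584) in wildtype. Abca9 was at -0.46 (SE 0.25).

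Markers of other cells moved with some comparisons, and their part in these results was not tested. Of 19 rod photoreceptor genes, all had reads in every group, with summed levels of 210 to 2830 CPM in Apoe-/- microbead, 177 to 1800 in Apoe-/- sham, 120 to 724 in wildtype microbead and 624 to 2940 in wildtype sham libraries. All 18 tested were lower in wildtype microbead than wildtype sham retinas, with a median log2 fold change of -1.90, against -0.01 over all genes. Of the 18, 11 had unadjusted p-values under 0.05 in edgeR, and 0 passed the threshold. For the difference between responses, Apoe-/- minus wildtype, all 18 were positive, with a median of 2.60, against 0.005 over all genes. Of these, 11 were at an unadjusted p under 0.05 in edgeR. After microbeads all 18 were higher in Apoe-/- than in wildtype, with a median log2 fold change of 1.59, against 0.014 over all genes. Of these, 7 were at an unadjusted p under 0.05 in edgeR, and 0 passed the threshold in either comparison. With microbeads against sham in Apoe-/- retinas 17 of the 18 were positive, with a median of 0.74, against 0.008 over all genes. In Apoe-/- sham against wildtype sham retinas 0 of the 18 were positive, with a median of -1.06, against -0.013 over all genes. Among the 18, 0 passed the threshold in these comparisons as well. Of the 10 microglial markers, Gpr34 (-0.96, SE 0.34), P2ry12 (-0.70, SE 0.32) and Siglech (-0.66, SE 0.28) had unadjusted p-values under 0.05 in edgeR with lower values in wildtype microbead than wildtype sham retinas, and 0 passed the threshold. Shares of all genes at an unadjusted p under 0.05 in the directions of these rod and microglial counts are not given here. The 7 monocyte markers summed to 26.4 to 68.4 CPM in Apoe-/- microbead libraries, with Ly6c2 at 0, and 27.8 to 133 CPM in Apoe-/- sham libraries. Of these, 6 had reads in wildtype microbead libraries, with a summed level of 34.8 to 87.0 CPM and Chil3 at 0, against 14.4 to 51.6 CPM in wildtype sham libraries, with Plac8 at 0. Fn1, the monocyte marker tested, had a log2 fold change with microbeads of 0.14 (SE 0.54) in Apoe-/- and 1.73 (SE 0.51, edgeR adjusted p = 0.327) in wildtype retinas. The 8 border macrophage markers summed to 49.2 to 141 CPM in Apoe-/- microbead and 31.1 to 112 CPM in Apoe-/- sham libraries, the sham ones with Cbr2 at 0. Of these, 8 had reads in wildtype microbead libraries, at 33.3 to 113 CPM, and 7 in wildtype sham libraries, at 28.0 to 80.5 CPM with Cbr2 at 0. Of the 3 tested, Ms4a7 was at 0.01 (SE 0.55) in Apoe-/- and 1.89 (SE 0.50, edgeR adjusted p = 0.18) in wildtype retinas, and Mrc1 at 1.28 (SE 0.69) in Apoe-/- and -1.17 (SE 0.72) in wildtype. Both Fn1 and Ms4a7 had unadjusted p-values under 0.05 in edgeR in wildtype, against 4.23% of all genes higher. Neutrophil markers summed to at most 1.94 CPM in Apoe-/- microbead, 7.14 in Apoe-/- sham, 1.0 in wildtype microbead and 3.49 in wildtype sham libraries, with S100a9 and Camp at 0 in every group.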

How the data were processed

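RNA of sorted retinal microglia was sequenced in 15 libraries of 4 groups, taken from the labels. Each library has a transcript table, as the authors deposited it, with estimated counts, TPM and effective lengths per the file headers. A gene table of TPM for the series was also deposited. Per the submitters' processing notes, Salmon 1.4.0, R 4.0.3 and DESeq2 1.30.1 were used with build mm10; the annotation release is not given in the sources used here. An estimated count need not be whole, because Salmon shares a read among the transcripts it fits.

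Estimated counts were summed per gene with GENCODE release M21, on the same build, and rounded. Of 116945 transcripts, 116023 were assigned, and unassigned ones, 0.217 to 0.354% of a library's reads, were left out. Summed TPM matched the deposited gene TPM for 150 of 150 member values, at a relative tolerance of 0.001. Chi-square tests between libraries of a group gave at least 2.4 per degree of freedom, more than counting error alone gives for 1 library sequenced again. These values cannot show whether the libraries came from separate mice. The genes were tested in 1 model of all 4 groups with edgeR 4.0.16 in R 4.3.3 (quasi-likelihood F-test, TMM, filterByExpr), two-sided, with Benjamini-Hochberg adjustment over 6521 genes and a threshold of 0.05, and the script was tested on simulated data. Nr1h3 was left out of the test by the filter. The common biological coefficient of variation was 34.4%. With 3 reads as the limit, a gene with 0 reads could have up to 4.198 to 6.549 CPM in a library, before TMM scaling, counting error only. Alternatives were DESeq2 1.42.0, no TMM, no filter, length offsets, limma 3.58.1 on log2 TPM with a pseudocount of 1 or 0.1, a replicate block and leaving out each library; fold changes on log2(TPM + pseudocount) understate the change of low genes.

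All 10 members were named, as were genes of the wider lists past the threshold and otherwise the 3 with the smallest p in wildtype retinas, and for 3 members the 5 genes of highest r. One gene that this rule names is not reported here. Motif positions count from the first transcribed base. The members and lists were chosen with earlier results of these data known.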

Additional observations from a re-analysis of the deposited data

Results flagged for a closer look

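Among the groups of 4 libraries, 29 were examined for a library that stood apart, meaning that its gap to the nearest library, divided by the whole range of the group, was above Dixon's 95% critical value for 4 samples. Chance gives about 1 such group in 20. In Apoe-/- microbead libraries, Abca1 was highest in library 2, at 139.0 CPM, and Lpl was highest in library 1, at 91.2 CPM. Nr1h3 stood apart at 1.94 CPM in Apoe-/- microbead library 3 and at 2.61 CPM in Apoe-/- sham library 4, each of which is 1 read where the other libraries of the group had 0. Library 2 of the Apoe-/- microbead group also had the highest Abcg1 level of all 15 libraries, at 95.6 CPM, and the highest Plin3 level, at 46.4 CPM.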

How the results depend on the processing

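The number of members past the threshold was 0 in all 5 comparisons and stayed 0 under every alternative run except 3. It was 1, Nceh1, in wildtype microbead against sham without TMM scaling (log2 fold change 2.08, adjusted p = 0.0461 in edgeR) and without the filter (1.69, adjusted p = 0.0165 in edgeR), and 1, Nceh1, in Apoe-/- against wildtype after microbeads on log2 TPM with a pseudocount of 1 (-2.26, adjusted p = 0.0468 in limma). DESeq2 gave no adjusted p for any member in that last comparison, so that count has no value. Leaving out each library in turn gave 0 members in every comparison.

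Signs turned in several small values, and the cause was not tested. With length offsets Nr1h2 was at -0.37 in Apoe-/- and -0.11 in wildtype retinas. Without TMM, Mylip was at 0.12 in Apoe-/- and 0.17 in wildtype, and Soat1 at 0.061 in Apoe-/-. Without the filter Mylip was at 0.002 in Apoe-/-. On log2 TPM with pseudocounts of 1 and 0.1, Mylip was at 0.17 and 0.20 in Apoe-/- and 0.55 and 0.61 in wildtype, Lpl at 0.23 and 0.26 in wildtype, and Soat1 at 0.034 and 0.059 in Apoe-/-. With a library left out, values for microbeads in Apoe-/- retinas ran from -0.14 to 1.01 for Abcg1, -0.32 to 0.11 for Mylip, -0.022 to 0.55 for Plin2, -0.24 to 0.49 for Plin3, -0.23 to 0.008 for Soat1 and -0.50 to 0.43 for Nceh1; the sign turned without Apoe-/- microbead library 2 for Abcg1 and Plin3, 1 for Plin2 and 4 for Soat1, and without Apoe-/- sham library 3 for Mylip, Plin3 and Nceh1 and 4 for Plin2. In wildtype they ran from 1.22 to 2.04 for Nceh1, 0.65 to 1.89 for Plin2, 0.46 to 0.98 for Soat1, 0.62 to 1.23 for Abca1 and 0.95 to 1.41 for Abcg1. The other 16 member values, in the comparisons between genotypes and of the responses, gave 55 of 347 alternative values of opposite sign, in 14 values of at most 0.58 in size, and 0 past the threshold.

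These scalings moved the median of all genes in wildtype retinas from -0.01 to 0.44 without TMM and to 0.59 and 0.74 on log2 TPM with pseudocounts of 1 and 0.1. The genes past the threshold there numbered 13, against 36 with DESeq2, 51 without TMM, 124 without the filter, 87 and 22 on log2 TPM, 7 with the replicate block and 0 without wildtype microbead library 2. After microbeads, Apoe-/- against wildtype had 3 such genes, against 26 with DESeq2 and 195 on log2 TPM with a pseudocount of 1. Same-numbered libraries had correlations of deviations of -0.161 to 0.029. With so few libraries per group, these values cannot decide whether same-numbered samples are paired, and the labels state no pairing. With the replicate block 0 members passed in any comparison. Depth limits what can be seen: in wildtype sham libraries the tested members held 3 to 84 reads each.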

Other observations

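The 10 Mueller glia and astrocyte markers had a summed level of 92.9 to 163 CPM in Apoe-/- microbead and 115 to 164 CPM in Apoe-/- sham libraries. Of these, 8 had reads in wildtype microbead libraries, with a summed level of 133 to 291 CPM and Rlbp1 and Aqp4 at 0, against 105 to 167 CPM in wildtype sham libraries, with Aqp4 and Dkk3 at 0. The 11 endothelial and pericyte markers summed to 29.6 to 55.9 CPM in Apoe-/- microbead and 17.4 to 84.4 CPM in Apoe-/- sham libraries. Of the 11, 10 had reads in wildtype microbead libraries, at 14.0 to 36.2 CPM with Kcnj8 at 0, and 9 in wildtype sham libraries, at 28.8 to 45.2 CPM with Cldn5 and Tek at 0. The 7 markers of retinal pigment epithelium summed to at most 10.4 CPM in Apoe-/- microbead, 26.1 in Apoe-/- sham, 14.7 in wildtype microbead and 12.0 in wildtype sham libraries, with Ttr at 0 in every group.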
